A study of Rattus norvegicus with 24 samples.

Results

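The genes described here encode the proteins of the cytosolic ribosome, and they were measured in testes of rats given dibutyl phthalate (DBP), a plasticizer known in rats for harm to the developing male tract. Members were taken by symbol: every gene named like Rpl or Rps with a number, ribosomal S6 kinases left out, that had a probe set carrying 1 gene symbol in the platform annotation. This gave 47 genes of 14217, on 52 of 31042 tested probe sets, and the brightest probe set over all arrays stood for each gene. They comprise 28 large subunit proteins, 12 small subunit proteins, Rplp0 of the acidic stalk and 6 paralogues (Rpl3l, Rpl7l1, Rpl26l1, Rpl39l1, Rps27l and Rps4y2). A further 36 probe sets carry a ribosomal protein symbol together with other symbols; they are not members and are given only as a group.

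All samples were whole testis of male Fisher 344 rats, 1 Affymetrix Rat230_2 array each, in 6 groups of 4. At postnatal day 35 (PND35) the groups are named by fetal and then postnatal exposure: DBP-DBP, DBP-oil, oil-DBP and oil-oil. Fetal exposure was 50 mg/kg DBP or corn oil given daily to the dam by gavage on gestational days 12 to 20, and postnatal exposure was 1 gavage of 500 mg/kg DBP or corn oil on PND35, 6 hours before the testis was taken. At gestational day 20 (GD20) there were 4 arrays from DBP dams, taken 6 hours after the last dose, and 4 from oil dams, of which the array of dam 2 is labelled a pool. Whole tissue does not tell fewer cells of a type apart from less RNA per cell.

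A ribosome is built from a large and a small subunit, each a core of ribosomal RNA with a set of small, mostly basic proteins. The genes of these proteins are among the most highly transcribed in growing cells, and their mRNAs typically begin with a run of pyrimidines (the TOP motif) that ties their translation to mTOR. Most mammalian ribosomal proteins are encoded by 1 active gene beside many processed copies. In male germ cells of mouse and human a few paralogues are known: Rpl39l, a copy of the X-linked Rpl39, is made in mouse spermatogenic cells, where it is needed for normal sperm, and the human gene RPS4Y2 is a testis-expressed relative of RPS4X. In the RefSeq gene table the rat gene Rpl39l1 lies on chromosome 10, Rpl39 on X and Rps4y2 on chromosome 4.

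The promoters of 5 members are shown because these genes carry the results below: both paralogues that rose with age, the X-linked counterpart of the first, and a large and a small subunit gene that fell. Each window holds 110 bases before and 10 bases after the annotated start (RefSeq, GRCr8), 5′ to 3′ on the gene's strand. Capitals mark CCGGAA (the core of ETS factor sites) and GATGGC (a core found in YY1 sites), searched on both strands, and a run of at least 8 C or T that reaches within 10 bases of the start.
Rpl39l1, chr10:5966612-5966731, minus strand: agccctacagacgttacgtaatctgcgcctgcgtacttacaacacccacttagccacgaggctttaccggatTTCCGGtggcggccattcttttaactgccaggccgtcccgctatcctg
Rps4y2, chr4:183000803-183000922, plus strand: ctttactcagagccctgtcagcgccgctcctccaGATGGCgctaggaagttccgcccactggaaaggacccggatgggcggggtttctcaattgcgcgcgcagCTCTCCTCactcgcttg
Rpl39, chrX:121195887-121196006, minus strand: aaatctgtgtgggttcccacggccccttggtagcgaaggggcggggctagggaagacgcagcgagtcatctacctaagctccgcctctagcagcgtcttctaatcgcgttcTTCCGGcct
Rpl13a, chr1:104748904-104749023, minus strand: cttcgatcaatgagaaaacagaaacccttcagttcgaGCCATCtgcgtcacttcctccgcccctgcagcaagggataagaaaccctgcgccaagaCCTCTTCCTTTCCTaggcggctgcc
Rps3, chr1:163195767-163195886, minus strand: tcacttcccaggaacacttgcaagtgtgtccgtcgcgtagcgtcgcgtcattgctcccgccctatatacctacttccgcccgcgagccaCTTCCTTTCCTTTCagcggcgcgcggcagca

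Promoters of 40 of the 47 members were found by gene number. Over 300 bases each, a pyrimidine run reaching within 10 bases of the annotated start was present in 60% of these members. It was present in 13.2% of all 33469 promoters. CCGGAA occurred in 37.5% of the members and 15% of all promoters, and GATGGC in 35% of the members and 14.4% of all promoters. TATAAA, the TATA box, occurred in 15% of the members and 14.2% of all promoters. In the windows shown, Rpl13a and Rps3 have a pyrimidine run of 14 bases that ends before the annotated start. Rps4y2 has one of 8 that reaches the annotated start, while Rpl39l1 and Rpl39 have no such run near it.

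The members were among the brightest probe sets of the testis. On every array their median lay between the 99.4th and the 99.8th percentile of all probe sets, and 38 of the 47 had a mean intensity of at least 8000 over the 24 arrays. Taking the brightest probe set on these same arrays favours a high rank, and this choice applied to the 5 members with 2 or more. The 7 members with a mean under 1000 were Rpl28, Rpl30, Rps13, Rpl39, Rpl26l1, Rpl3l and Rps27l. For Rpl28, Rpl30 and Rps13, whose means were under 100, the annotation has another probe set that joins their symbol with others, so the dim probe set is no measure of the whole transcript pool of these genes. Intensities of different probe sets are not on 1 scale, and levels below are compared only within a gene.

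Arrays differed in ways that touch the results. The poly-A controls added to each RNA (dap, lys, phe and thr) fell into a high and a low class, divided here at a mean of 7 on the log2(intensity + 16) scale. All 4 DBP-DBP arrays and the DBP-oil arrays of pups 132 and 134 were high, while the oil-DBP and oil-oil arrays were low. At GD20 the arrays of DBP dams 19 and 21 were low, and dams 16 and 18 and all 4 oil arrays were high. Fetal RNA was made with Trizol followed by a micro kit, and PND35 RNA with a column kit on 14 of 16 arrays, the exceptions being the Trizol arrays of pups 104 (oil-oil) and 115 (oil-DBP). RNA integrity numbers were 8.2 to 8.9 over all arrays; they were 8.5, 8.8, 8.9 and 8.8 in DBP-DBP testes, against 8.5, 8.2, 8.6 and 8.4 in oil-oil testes.

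**Figure D1:**
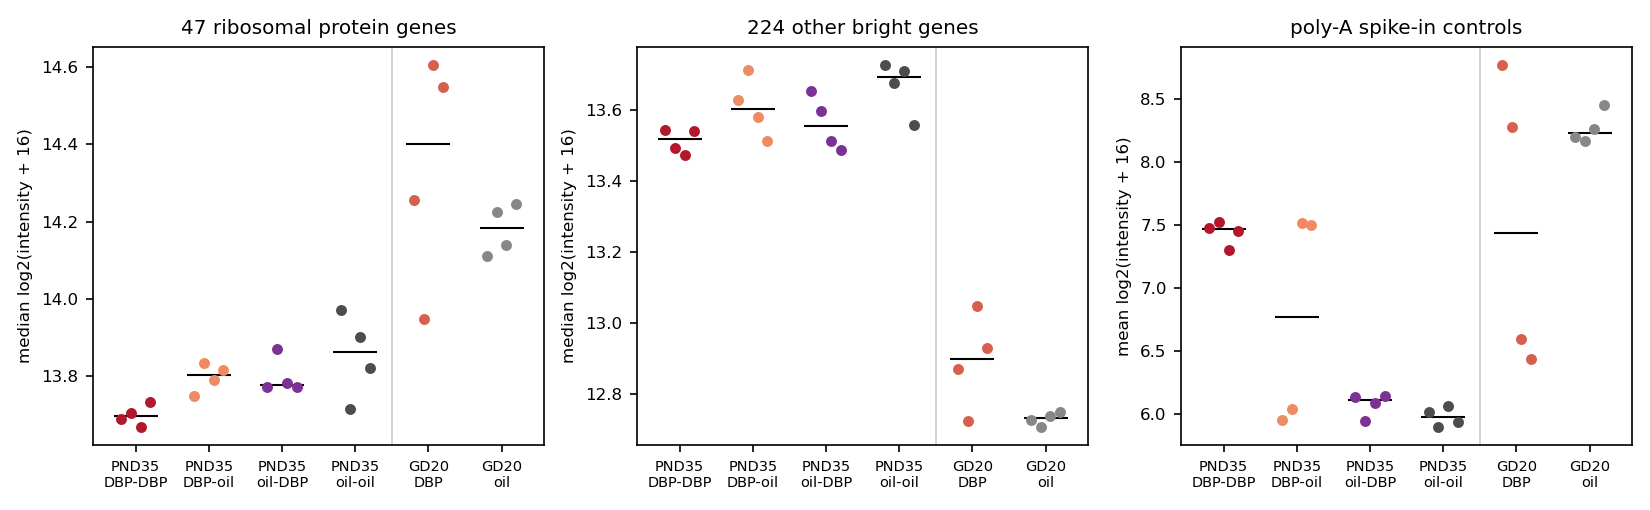
Each point is 1 array, 4 per group, and the line is the group's median. Panels show the median log2(intensity + 16) of the 47 ribosomal protein genes, the same for 224 other genes with a mean intensity of at least 8000, and the mean log2(intensity + 16) of the poly-A spike-in controls, each on its own axis that does not start at 0. The arrays of GD20 DBP dams 19 and 21 have the highest ribosomal protein medians, 14.60 and 14.55, and the lowest spike-ins of that age.

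Of the contrasts made, age had the most called members and also the most called probe sets over all. Between the control groups, PND35 oil-oil and GD20 oil, 2 of 47 members rose (4.26%) and 25 fell (53.2%) at an adjusted p under 0.05. Over all probe sets 20.5% rose and 42.9% fell (63.4% in either direction). The members' share of rises was thus below that of all probe sets, and their share of falls above it. The members that rose were the paralogues Rpl39l1 and Rps4y2. The members' median log2 difference was -0.27, beside -0.31 over all probe sets, and both medians depend on the scaling, as given below.

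Rpl39l1, the germ cell paralogue of the exit tunnel protein Rpl39, had intensities of 22489, 21133, 23874 and 19351 in PND35 oil-oil testes, against 2377, 2415, 2309 and 2208 in GD20 oil testes. The groups did not overlap, and the lowest PND35 array lay far above the highest fetal one. The log2 difference was 3.21 ± 0.09 (SE, limma, adjusted p = 3.70e-21), or 9.25-fold on the log2(intensity + 16) scale.

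Rps4y2, a relative of the small subunit protein Rps4, had intensities of 5268, 5087, 4723 and 4835 in PND35 oil-oil testes, against 1083, 1190, 1140 and 1241 in GD20 oil testes. These groups were apart as well. The log2 difference was 2.08 ± 0.09 (SE, limma, adjusted p = 2.59e-17), or 4.24-fold. Both paralogues were higher with adjusted p under 0.05 in all 18 alternatives, with log2 differences of 2.96 to 3.86 for Rpl39l1 and 1.96 to 2.74 for Rps4y2.

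The other paralogues were not called higher with the arrays as deposited. Rpl3l, the striated muscle relative of Rpl3, fell by 1.46 ± 0.42 on the log2 scale (limma, adjusted p = 0.00299), but on a dim probe set, with 3.03 to 84.3 units in PND35 oil-oil testes and 88.1 to 102 in GD20 oil testes. Rpl7l1, related to Rpl7, averaged 2075 ± 162 in PND35 oil-oil testes and 2161 ± 77.8 in GD20 oil testes (SD, n = 4 each) and was not called. Its second probe set had a log2 difference of -0.23 with an adjusted p of 0.00534 (limma); both probe sets have the same sign and only the dimmer one passed. Rps27l, a p53 target in human cells, averaged 476 ± 90.4 in PND35 oil-oil testes and 578 ± 58.5 in GD20 oil testes and was not called, nor was Rpl26l1. These signs depend on the scaling. With each array centred on its median, Rpl7l1, Rpl26l1 and Rps27l had log2 differences of 0.59, 0.53 and 0.37. That of Rpl3l was -0.81. Rpl39 itself averaged 185 ± 65.6 in PND35 oil-oil testes and 274 ± 69.8 in GD20 oil testes, groups that overlap (log2 difference -0.56 ± 0.29, limma, adjusted p = 0.0970).

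**Figure D2:**
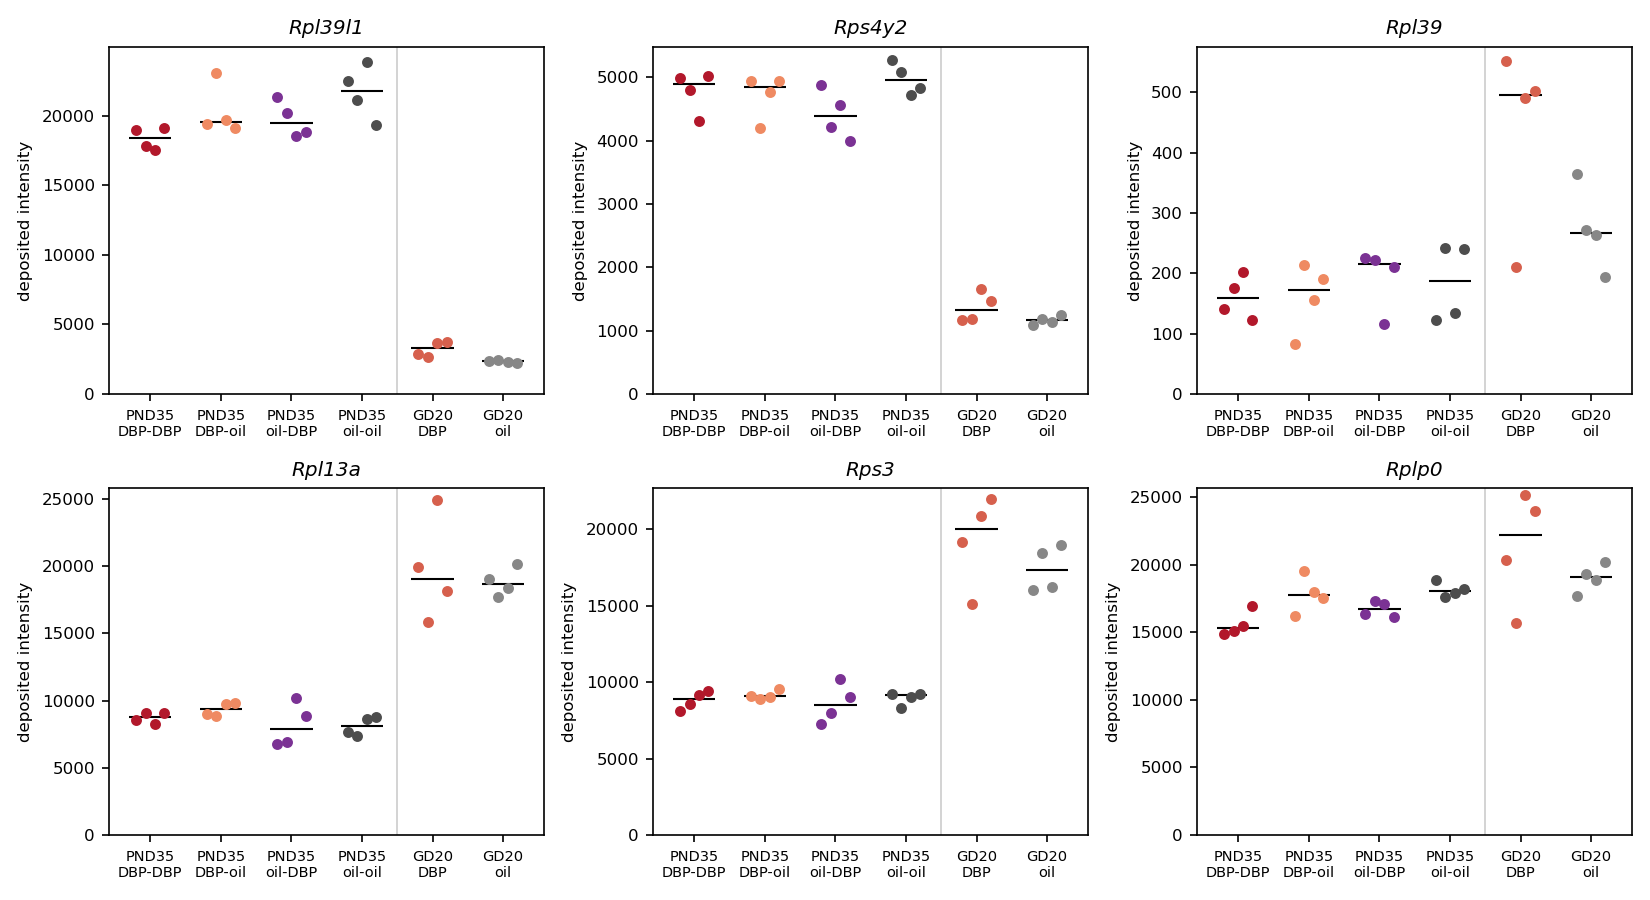
Deposited intensity of 6 members on a linear axis that starts at 0; each point is 1 array, 4 per group, and the line is the group's median. Rpl39l1 and Rps4y2 are higher on every PND35 array than on any GD20 array, Rpl13a and Rps3 are lower, and Rplp0 and Rpl39 overlap between the ages.

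Among the conventional subunit proteins, 20 of 28 large subunit genes and 4 of 12 small subunit genes fell with age, and none rose. Over all probe sets 42.9% fell and 20.5% rose. The falls include the dim probe sets of Rpl28, Rpl30 and Rps13. Rpl13a, a large subunit protein also known from translational silencing after interferon in human cells, had 7670, 7330, 8590 and 8779 in PND35 oil-oil testes, against 19024, 17703, 18356 and 20168 in GD20 oil testes. No array of either group came near the other group. The log2 difference was -1.22 ± 0.12 (SE, limma, adjusted p = 3.49e-10).

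Rps3, a small subunit protein at the mRNA entry site, had 9245, 8342, 9028 and 9240 in PND35 oil-oil testes, against 16028, 18472, 16207 and 18949 in GD20 oil testes, a log2 difference of -0.95 ± 0.10 (limma, adjusted p = 3.32e-09). Rpl21 had 5693, 5873, 6916 and 6679 in PND35 oil-oil testes, against 13275, 12676, 12439 and 12182 in GD20 oil testes, and its log2 difference was -1.01 ± 0.13. Rpl35 had 11052, 9249, 11207 and 10569 in PND35 oil-oil testes, against 18740, 19239, 19421 and 20520 in GD20 oil testes, and its log2 difference was -0.89 ± 0.10. The groups were apart for each of these 3 genes. Rpl14 fell by 0.73, Rpl6 by 0.73, Rpl3 of the peptidyl transferase centre by 0.67, Rpl34 by 0.63 and Rpl4 by 0.60 on the log2 scale. Rps13, Rpl30 and Rpl28 were also called lower, on dim probe sets where a fold has little meaning: Rpl30 was at 5.76, 2.70, 51.2 and 17.5 in PND35 oil-oil testes and at 40.4 to 57.3 in GD20 oil testes. With dim probe sets filtered out, 43 members were tested, of which 2 rose and 21 fell. The share of all filtered probe sets called is not given here.

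Smaller falls, between 0.21 and 0.50 on the log2 scale, were called for Rpl19, Rps16, Rpl26, Rpl12, Rpl27, Rpl5, Rpl18, Rps15, Rpl35a, Rpl23, Rpl24 and Rpl22. Rpl5 is 1 of the proteins that with 5S RNA form a particle able to bind Mdm2. Its partner Rpl11 averaged 18468 ± 817 in PND35 oil-oil testes and 18100 ± 618 in GD20 oil testes (SD, n = 4 each) and was not called. Rplp0, the base of the stalk that recruits elongation factors, averaged 18178 ± 532 in PND35 oil-oil testes and 19014 ± 1044 in GD20 oil testes. Rps6, the target of the S6 kinases, averaged 23865 ± 2576 in PND35 oil-oil testes and 21651 ± 1532 in GD20 oil testes. Neither passed the threshold, with log2 differences of -0.06 ± 0.10 and 0.14 ± 0.12. The remaining members that did not pass were Rps28, Rps9, Rpl23a, Rps15a, Rpl7, Rpl7a, Rps24, Rpl37a, Rps3a, Rps29, Rpl41, Rpl27a and Rps23.

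The sign of these small falls depended on how arrays of the 2 ages were put on 1 scale. The arrays share a trimmed mean, but their median intensity was 100.8 to 106.7 in PND35 oil-oil testes and 169.1 to 174.5 in GD20 oil testes. With each array centred on its median, 29 members rose and 5 fell. Centred on the 75th percentile, 10 rose and 13 fell, and after quantile normalization 3 rose and 33 fell. The share of all probe sets called under these scalings is not given here, so the counts show only how the signs depend on scaling. The median over all probe sets was -0.31 as deposited, 0.34 with median centring, -0.01 at the 75th percentile and 0.01 after quantile normalization, and the members' median was -0.27, 0.39, 0.03 and -0.36. Under all 4 scalings 7 members passed the threshold with 1 sign: Rpl39l1 and Rps4y2 were higher and Rpl13a, Rpl21, Rpl35, Rps3 and Rps13 were lower, the last on a dim probe set that the filter left out. Members also changed unequally on the same arrays: as deposited, the age difference was -1.22 for Rpl13a and 0.14 for Rps6, and after quantile normalization it was -1.40 and 0.03.

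**Figure D3:**
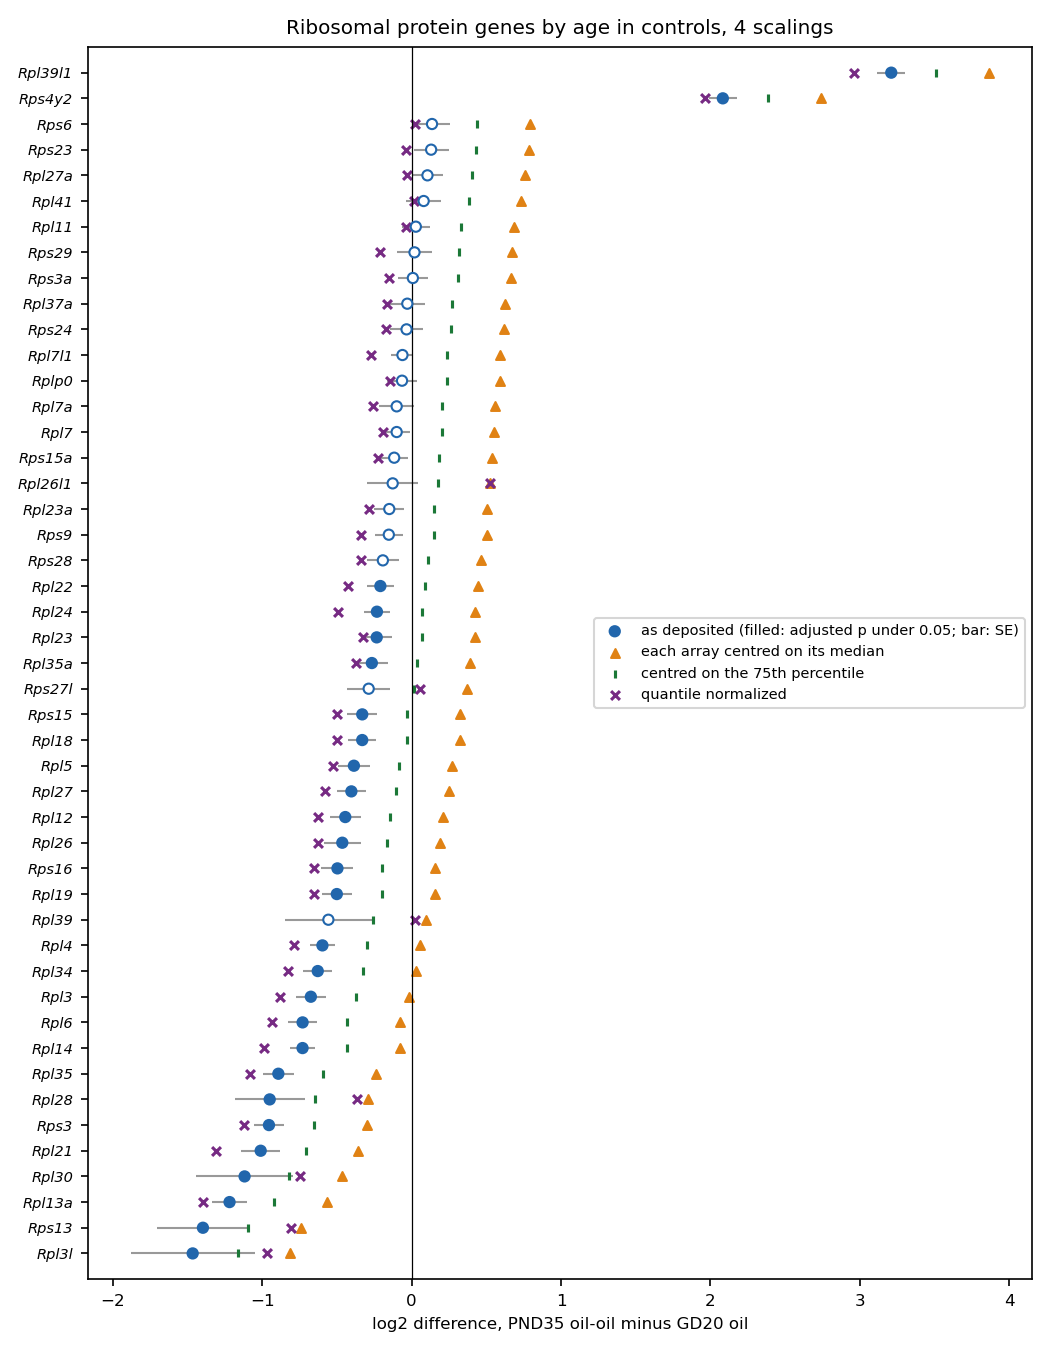
Log2 difference of each of the 47 members, PND35 oil-oil minus GD20 oil, under 4 scalings. Circles are arrays as deposited, filled where the adjusted p is under 0.05, with bars of 1 SE; other symbols are the same differences after median centring, 75th percentile centring and quantile normalization. Rpl39l1 and Rps4y2 lie far to the right under every scaling, and 32 of the 47 members lie on both sides of 0 depending on the scaling.

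Second probe sets were available for 5 members. That of Rps24, a small subunit gene with alternative 3′ exons, averaged 59.7 ± 6.79 in PND35 oil-oil testes and 475 ± 36.8 in GD20 oil testes (SD, n = 4 each), a log2 difference of -2.70 ± 0.17 (limma, adjusted p = 3.73e-14). The brighter probe set of the same gene differed by -0.03 ± 0.11. The probe sets of Rps24 therefore disagree, and the dimmer one separated the ages without overlap. The second probe set of Rpl3 fell by 0.97, as its brightest did.

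Other parts of the translation machinery moved in both directions with age. Of 73 mitochondrial ribosomal protein genes, 47 rose and 14 fell (median 0.47), and of 77 measured ribosome biogenesis genes, 24 rose and 39 fell (median -0.31). Of 10 elongation factor genes, 3 rose and 4 fell, and of 34 initiation factor genes, 19 rose and 12 fell. Among genes tied to the ribosome but named otherwise, Gas5, a TOP RNA that hosts small nucleolar RNAs, fell by 3.49 and Hnrnpa1 by 2.45. Rack1, a scaffold on the small subunit, fell by 1.08 and Rpsa by 0.73. Naca and Nap1l1 of the same list were not called, with log2 differences of 0.12 and -0.01. Of the 36 probe sets with several symbols, 2 rose and 17 fell.

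Cell type markers moved with these results. All 17 measured spermatid markers rose (median log2 difference 6.83), as did 10 of 12 spermatocyte markers (median 3.75), and the summed intensity of the spermatid list was 144085 to 189170 in PND35 oil-oil testes and 1147 to 1367 in GD20 oil testes. All 10 Leydig cell markers fell (median -2.07). Spike-in class and extraction kit moved with age as well, and the part of cell makeup, spike-ins and extraction in the members' differences was not tested.

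Fetal DBP was not followed by a called change in any member at GD20. Of the 47 members 0 passed at an adjusted p under 0.05 (limma), where 0.441% of all probe sets did (0.209% higher and 0.232% lower). An unadjusted p under 0.05 was found for 2 of the 47 members and for 3652 of all 31042 probe sets. The members' median log2 difference was 0.15, with 43 of 47 above 0, beside -0.01 over all probe sets and 0.14 for the 224 other bright genes. The members' median per array was 14.26 and 13.95 on the arrays of DBP dams 16 and 18 and 14.60 and 14.55 on those of dams 19 and 21, against 14.11 to 14.25 on the oil arrays. Dams 16, 19 and 21 stood above all oil arrays, dam 16 by the least, and dam 18 below them. Without dams 19 and 21 the median difference was -0.07.

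Rpl39l1 had the smallest p of the members at GD20. Its intensities were 2890, 2646, 3686 and 3740 on the arrays of DBP dams 16, 18, 19 and 21, against 2377, 2415, 2309 and 2208 on the arrays of oil dams 2, 3, 4 and 5. All 4 DBP arrays lay above all 4 oil arrays, as did those of 3.2% of all probe sets; 0 members had all DBP arrays below all oil arrays, as 4% of all probe sets had. The log2 difference of 0.46 ± 0.10 did not pass (limma, adjusted p = 0.0986). It was 0.25 without dams 19 and 21 (adjusted p = 0.140).

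Spermatid markers were high mainly on the array of DBP dam 21. The summed spermatid list was 1402, 1159, 1598 and 6153 on the arrays of DBP dams 16, 18, 19 and 21, against 1147 to 1367 on the oil arrays. In the same order, the gonocyte and spermatogonia list was 6592, 6249, 7063 and 7025, against 6206 to 6400.5 on the oil arrays. The spermatocyte list was 4905, 4917, 4994 and 7137, against 4456 to 4882. Prm1, a protamine of late spermatids, had 27.5, 31.5, 116 and 1469 on the same DBP arrays, against 26.5 to 60.1 on the oil arrays. All 8 blood markers were above 0 in this contrast (median 0.35), and none of the 17 spermatid or 8 blood markers passed. The part of these markers in the difference of Rpl39l1 was not tested; without dam 21 that difference was 0.39 (adjusted p = 0.155).

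Rpl39 and Rps4y2 had the next smallest p. Rpl39 was at 552, 211, 491 and 502 on the arrays of DBP dams 16, 18, 19 and 21, against 365, 272, 263 and 195 on those of oil dams 2 to 5. The groups overlap through dam 18 (log2 difference 0.60 ± 0.26, limma, adjusted p = 0.402), and without that dam Rpl39 and Rpl39l1 both passed, at 0.90 (adjusted p = 0.0447) and 0.55 (adjusted p = 0.0256). For Rpl39 this left out the only DBP array within the oil range, on a dim probe set (mean 235 over the 24 arrays). Rps4y2 averaged 1367 ± 234 in DBP testes and 1164 ± 68.0 in oil testes (SD, n = 4 each) and did not pass.

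At PND35 the arrays were compared after centring each on its median, and the contrasts that follow share control arrays. After a single dose of DBP that followed fetal oil, 1 member fell, where 4.15% of all probe sets fell and 4.77% rose (8.92% in either direction). This was Rpl24, a large subunit protein near the site where eIF6 binds in yeast. It had 10318, 9984, 10352 and 10706 in oil-DBP testes, against 12070, 12064, 12344 and 11799 in oil-oil testes. The groups did not overlap, and the log2 difference was -0.29 ± 0.08 (limma, adjusted p = 0.0205). The other 46 members were not called, and the members' median difference was -0.12, beside -0.08 over all probe sets. The call of Rpl24 was lost with quantile normalization, without the intensity trend, with RNA integrity as a covariate, without the Trizol arrays, in a fit of the 8 arrays alone, and without oil-oil pup 110 or 114 or oil-DBP pup 111. With a filter on dim probe sets 7 members passed. The filter changes the probe sets over which p is adjusted, and the share of them called is not given here.

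A dose of DBP after fetal DBP was followed by 0 called members, where 5.23% of all probe sets passed (3.64% higher and 1.58% lower). An unadjusted p under 0.05 (limma) was found for 6 of the 47 members and for 4630 of all 31042 probe sets. The members' median difference was -0.13, beside -0.06 over all probe sets. In 20 of the 47 members all DBP-DBP arrays lay below all DBP-oil arrays after centring, a larger share than the 6.29% of all probe sets. The smallest p was that of Rps24 (-0.23 ± 0.08, adjusted p = 0.0979), followed by Rplp0 (-0.21 ± 0.07, adjusted p = 0.136) and Rpl5 (-0.23 ± 0.09, adjusted p = 0.166, limma).

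Fetal DBP left no called member at PND35, before either postnatal oil or postnatal DBP. Before postnatal oil 0 of 47 passed in limma (0.00322% of all probe sets did), with a median difference of -0.09 between DBP-oil and oil-oil testes. An unadjusted p under 0.05 was found for 2 of the 47 members and for 2299 of all 31042 probe sets. Before postnatal DBP 0 of 47 passed (0% of all probe sets), with a median of -0.08 between DBP-DBP and oil-DBP testes. Here 5 of the 47 members and 2791 of all 31042 probe sets had an unadjusted p under 0.05. The interaction of both exposures was called for 0 members and 0% of all probe sets, and its median over the members was 0.01. Its unadjusted p was under 0.05 for 0 members and for 1466 of all 31042 probe sets. The smallest p of the 3 contrasts belonged to Rps29, Rps28 and Rps4y2, with adjusted p of 0.554, 0.437 and 0.954.

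Nearly all called falls in the DBP contrasts came from the comparison of both exposures with none. Between DBP-DBP and oil-oil testes 13 of the 47 members fell and 0 rose, or 27.7% of the members, where 3.56% of all probe sets fell and 4.69% rose (8.25% in either direction). They comprised 7 of 12 small subunit genes, 5 of 28 large subunit genes and Rplp0, and none of the paralogues. The fold changes were small: the members' median was -0.20, beside -0.07 over all probe sets. The 224 other bright genes had the same median of -0.20, with 26 lower and 2 higher.

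Rpl37a, a zinc-binding large subunit protein, had 17384, 16233, 17924 and 18898 in DBP-DBP testes, against 21934, 22110, 25056 and 20797 in oil-oil testes. Its log2 difference of -0.39 ± 0.10 was the largest of the 13 (limma, adjusted p = 0.0233). Rps29, a small zinc-binding protein of the small subunit, had 22944, 22670, 23882 and 24732 in DBP-DBP testes, against 32440, 28180, 31580 and 27516 in oil-oil testes, with a log2 difference of -0.38 ± 0.09 (limma, adjusted p = 0.0110). The groups did not overlap for either gene. In DBP-oil testes Rps29 had 24392, 29359, 25214 and 24403, which overlaps both of these groups.

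Rps23, which lies at the decoding centre, had 21756, 21042, 21493 and 22372 in DBP-DBP testes, against 29182, 23863, 29758 and 24723 in oil-oil testes, and its log2 difference was -0.34 ± 0.09. Rpl41, the shortest ribosomal protein, had 16850, 16029, 16036 and 16368 in DBP-DBP testes, against 22036, 19320, 20795 and 18104 in oil-oil testes, a log2 difference of -0.33 ± 0.09. Rplp0 had 14891, 15106, 15503 and 16932 in DBP-DBP testes, against 18893, 17649, 17943 and 18228 in oil-oil testes, a log2 difference of -0.26 ± 0.07. No array of the double-exposed group reached an oil-oil array in these 3 genes. Rps28, Rpl7a, Rps24, Rpl11, Rpl22, Rps9, Rps3a and Rps15a fell by 0.34, 0.32, 0.31, 0.29, 0.29, 0.27, 0.26 and 0.25 on the log2 scale. In all, 26 members lay lower without overlap, as did 9.05% of all probe sets.

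Rpl39l1 and Rps4y2 did not pass the threshold. Rpl39l1 had 18976, 17866, 17541 and 19164 in DBP-DBP testes, against 22489, 21133, 23874 and 19351 in oil-oil testes, with a log2 difference of -0.27 ± 0.09 (limma, adjusted p = 0.0679). Rps4y2 averaged 4778 ± 328 in DBP-DBP testes and 4978 ± 246 in oil-oil testes (SD, n = 4 each). Of the 5 members that fell with age under every scaling, 0 passed here: the log2 differences of Rpl13a, Rpl21, Rps3, Rps13 and Rpl35 were 0.07, -0.02, -0.06, 0.06 and -0.21, and Rpl35 passed in 3 of 22 alternatives.

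**Figure D4:**
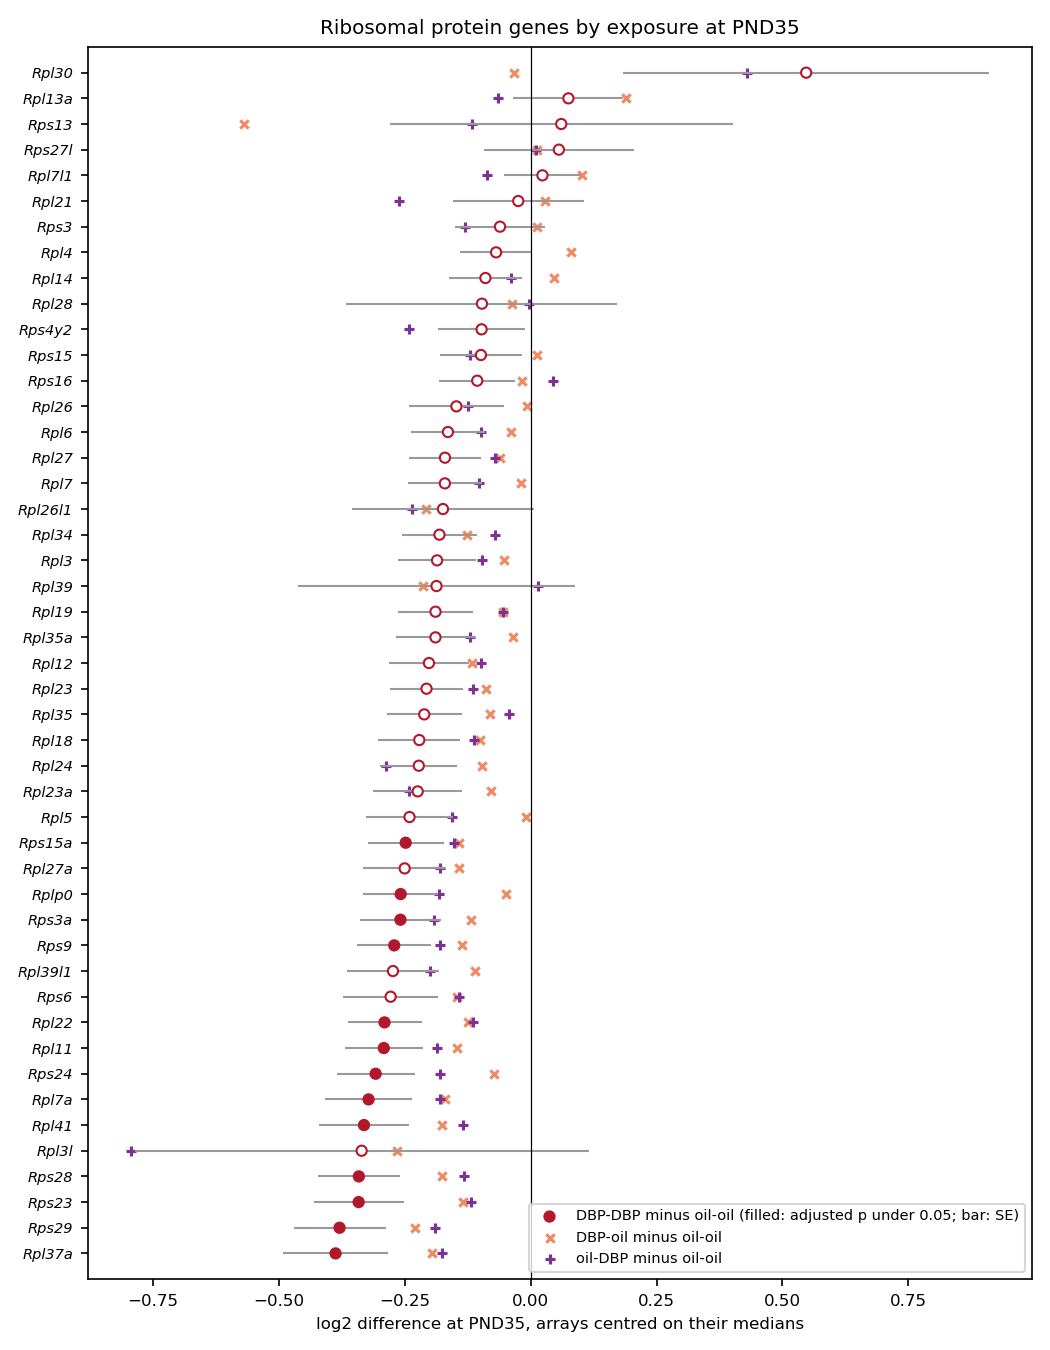
Log2 differences of the 47 members at PND35 after centring each array on its median. Circles are DBP-DBP minus oil-oil, filled where the adjusted p is under 0.05, with bars of 1 SE; crosses are DBP-oil minus oil-oil and plus signs oil-DBP minus oil-oil, all sharing the oil-oil arrays. The 13 filled circles lie between -0.39 and -0.25.

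These falls depended on the processing and on single arrays. With quantile normalization, or with a term for spike-in class, 0 of 47 passed and the median difference was 0.00 and -0.11. RNA integrity was higher in DBP-DBP testes (median 8.8) than in oil-oil testes (median 8.45), and with it as a covariate 3 members passed and Rps28 (adjusted p = 0.0673, limma) and Rps29 (adjusted p = 0.0503) did not. All DBP-DBP arrays are in the high spike-in class and all oil-oil arrays in the low one, so double exposure and spike-in class cannot be told apart between these groups. Without oil-oil pup 104 or 114 the counts were 3 and 4, and without DBP-DBP pup 128, 133 or 135 they were 6, 4 and 7. With a filter that left out dim probe sets the count was 22, with p adjusted over fewer probe sets. The share of those called is not given here.

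Neighbouring lists showed the following in the same contrast. Of 73 mitochondrial ribosomal protein genes 12 fell (median -0.22), and of the 36 probe sets with several symbols 14 fell (median -0.22). Of 17 spermatid markers 3 fell and 0 rose (median -0.32), with a summed intensity of 123471 to 138740 in DBP-DBP testes and 144085 to 189170 in oil-oil testes. Of 13 peritubular myoid markers 6 rose and 0 fell (median 0.38). Of 10 Leydig cell markers 1 rose and 4 fell (median -0.39), with a summed intensity of 16953 to 19305 in DBP-DBP testes and 20989 to 27358 in oil-oil testes, which do not overlap. Of 16 macrophage and leukocyte markers 3 rose and 0 fell (median 0.07): Cd14 by 1.04, Lyz2 by 0.88 and Mrc1 by 0.48. Of 15 Sertoli cell markers 1 rose and 3 fell (median -0.03). The part of these cell types in the members' falls was not tested.

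A few genes that build or serve ribosomes passed after postnatal DBP. Of 77 ribosome biogenesis genes 5 rose and 2 fell after fetal oil (oil-DBP against oil-oil), and 2 rose and 0 fell after fetal DBP (DBP-DBP against DBP-oil). Over all probe sets 4.77% rose and 4.15% fell after fetal oil, and 3.64% rose and 1.58% fell after fetal DBP, so these shares are near the background. Of 34 initiation factor genes 2 rose (Eif6 and Eif4a1) and 3 fell (Eif3f, Eif2b4 and Eif3d) after fetal oil. Eif6, which keeps the subunits apart during maturation, rose by 0.64 ± 0.09 after fetal oil and by 0.49 ± 0.09 after fetal DBP, with adjusted p of 9.05e-05 and 0.00201 (limma). Rcl1, a factor of small subunit processing, rose by 0.81 ± 0.14 and 0.61 ± 0.14 in the same contrasts. Dkc1, the pseudouridine synthase of box H/ACA particles, rose by 0.62 ± 0.13 after fetal oil and had a difference of 0.00 ± 0.13 after fetal DBP, and the interaction did not pass (adjusted p = 0.954). Myc, a transcription factor known to drive ribosome biogenesis, rose by 2.73 ± 0.23 and 3.00 ± 0.23. The elongation factor genes Eef2 and Eef1g fell by 0.38 ± 0.08 and 0.39 ± 0.08 after fetal oil. After fetal DBP neither passed, with log2 differences of -0.16 ± 0.08 for each (limma, adjusted p = 0.375 and 0.356).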

How the data were processed

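The deposited table holds linear probe-set intensity for 24 arrays of total RNA; the submitters' processing notes name GCOS 1.0, and the sources used here do not give the summarization algorithm. The authors scaled each deposited intensity column to a 2% trimmed mean of about 500, as the values show. Arrays are the replicates, and their number limits the precision. The PND35 titles give pup numbers and no dam, so the number of litters behind a PND35 group is unknown. Fetal exposure was given to dams, and pups of 1 dam would not be independent replicates of it. A pseudocount of 16 was added before log2. Of 31099 probe sets, 57 manufacturer's controls were left out and 31042 tested with no filter, so all 47 members were tested. Groups came from the sample titles.

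Contrasts were fitted with limma 3.58.1 in R 4.3.3 (lmFit, eBayes with an intensity trend; two-sided, Benjamini-Hochberg adjustment over all 31042 probe sets, threshold 0.05). The GD20 arrays were fitted as deposited, the PND35 arrays centred on their medians, and the age contrast on all 24 arrays as deposited; 8 contrasts were made. Errors are moderated standard errors (SE) of log2 differences and standard deviations (SD) of intensities. The fits were tested on simulated data.

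The members and lists were chosen with earlier results of these data known. Named are, per contrast, the 10 largest rises and falls past the threshold, the 3 smallest p where fewer than 3 members pass, a set of 23 ribosomal protein genes of which 13 are members, and up to 3 genes per other list and direction; other genes were named after their values were seen. Of the members, 45 matched the RefSeq gene table by number. Near-identical processed copies may share probes with a member. Alternatives covered scaling, pseudocount, dim probe sets, the trend, all probe sets of a gene, covariates, left-out arrays and a block of adjacent pup numbers.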

Additional observations from a re-analysis of the deposited data

Results flagged for a closer look

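In 84 groups of 4 values (the members' median and 13 named members in 6 groups), 7 arrays lay far from the other 3 of their group; chance gives this in about 1 of 20 groups. Among the oil-DBP arrays, that of pup 111 had the highest members' median, 13.87 on the log2 scale against 13.77 to 13.78 on the others, and the highest Rpl7, 18026 against 15866 to 15884. The array of oil-DBP pup 115 had the lowest Rpl39, 116 against 210 to 226. The DBP-DBP array of pup 133 had the highest Rpl3l, 48.2 against 7.83 to 10.8. Among the DBP-oil arrays, that of pup 134 had the highest Rpl7l1, 2587 against 2117 to 2183, and the highest Rps27l, 541 against 454 to 467, and that of pup 127 the highest Rps6, 23048 against 21149 to 21473. Their causes were not tested.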

How the results depend on the processing

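For both exposures together, 13 members were called as reported, 0 after quantile normalization and with a term for spike-in class, 22 with a filter on dim probe sets, 3 each without the intensity trend, without the 2 Trizol arrays and with RNA integrity as a covariate, and 3 to 12 when 1 array was left out. For postnatal DBP after fetal oil, 1 member was called as reported, 7 with the filter on dim probe sets, 0 with quantile normalization, without the trend, without the Trizol arrays, with RNA integrity as a covariate and in a fit of the 8 arrays, and 0 to 2 when 1 array was left out. For postnatal DBP after fetal DBP the filter gave 2 in place of 0, and leaving out 1 array gave 0 to 2 for fetal DBP at GD20. Counts with the filter rest on p adjusted over fewer probe sets, and the share of those called is not given here. The other contrasts of fetal DBP and the interaction stayed at 0 under every alternative run. For age, 27 members were called and 23 to 28 when 1 array was left out. The following 2 alternatives were chosen after seeing the data: leaving out DBP-oil pups 132 and 134, or 123 and 127. Neither changed its count.

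With each array centred on its median, members that fell with age as deposited had log2 differences above 0: Rpl27 0.25, Rpl19 0.15, Rpl18 0.32, Rpl22 0.45, Rps16 0.16, Rpl34 0.027, Rpl12 0.21, Rps15 0.32, Rpl26 0.19, Rpl4 0.058, Rpl35a 0.39, Rpl5 0.27, Rpl24 0.42 and Rpl23 0.42. Centred on the 75th percentile, Rpl22 was at 0.092, Rpl35a 0.035, Rpl24 0.069 and Rpl23 0.067. Rps3a was at 0.0046 for both exposures after quantile normalization. The scaling's own construction shifts all genes here, with a median over all probe sets of -0.31 as deposited.

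Adjacent pup numbers were tried as a pairing: their deviations correlated at -0.13 to 0.24, with 4 of 8 pairs over 0.1 and a consensus correlation of 0.05. The main fits do not pair the samples by these numbers, but the values do not settle whether adjacent pups are related. The replicate block left every count of called members as it was, 13 for both exposures and 1 for postnatal DBP after fetal oil.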
